A study of Mus musculus with 2 samples.

Results

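General capillary endothelial cells line most of the alveolar capillary bed, and 390 of the 19622 cells kept from 2 lung libraries were taken as such. A cell was chosen by its UMIs, the counted transcript molecules. It had at least 200 genes and at most 10% mitochondrial UMIs, at least 3 UMIs of the endothelial genes Cdh5, Pecam1 and Egfl7 together, and none of the epithelial gene Epcam or the leukocyte gene Ptprc. The 6 stromal genes Col1a1, Col1a2, Col3a1, Mfap4, Dcn and Pdgfra together had to give under 0.1% of its UMIs. It had at least 2 UMIs of Gpihbp1 and Plvap together, and more of these than of the aerocyte genes Car4 and Ednrb. Library 1 gave 42 general capillary cells of 9634 and library 2 gave 348 of 9988.

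The study asks which cells of the mouse lung hold retinoid and what they express. Lungs were digested with enzymes, and living single cells were sorted for the ultraviolet-excited glow of stored retinoid before droplet sequencing of transcript 3' ends. Both libraries come from untreated wild type C57BL/6 mice aged 3 months, which the study's methods give as male and Lrat+/+, prepared on separate occasions; the number of mice in a library is not stated in the labels. There is therefore 1 condition, and the comparisons below are between cell groups inside the same libraries. Stromal cells, the cells that the sort mainly gave, were those with no UMI of the 3 endothelial genes, none of Epcam or Ptprc, and 0.1% or more of UMIs from the 6 stromal genes. Aerocytes passed the same endothelial and stromal limits as general capillary cells but had at least 2 UMIs of Car4 and Ednrb and more of these than of Gpihbp1 and Plvap. The libraries share 23 barcodes, and 0 of the general capillary barcodes are among them.

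The alveolar capillaries hold a pair of endothelial cell types. Aerocytes are large, thin cells specialised for gas exchange, while general capillary cells control vascular tone, present antigen to T cells and act as progenitors that divide and replace both types after injury. General capillary cells also carry GPIHBP1, which brings lipoprotein lipase to the vessel lumen, where the enzyme releases fatty acids and, from chylomicrons, helps deliver retinyl esters to tissue.

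The values that chose the cells are a description only. The median was 8 UMIs of Gpihbp1 and Plvap in library 1 and 13 in library 2, and the median of the endothelial genes was 10 and 25 UMIs. The median of Car4 and Ednrb was 0 UMIs in library 1 and 1 in library 2. At least 1 UMI of the 6 stromal genes was seen in 7 of 42 cells (16.7%) and in 168 of 348 (48.3%). Few cells lay at the capillary threshold: 1 cell in library 1 and 10 in library 2 had exactly 2 UMIs of Gpihbp1 and Plvap, while 1 and 9 cells missed the gate with 1 UMI. At the endothelial threshold, 0 and 4 cells had 3 UMIs, and 1 and 5 cells missed it with 2. The stromal limit mattered most. Just inside it, with a stromal share of 0.05% to 0.1%, were 2 and 63 cells, while 10 and 169 cells that met every other condition had 0.1% to 0.2%, and 66 and 533 had more than 0.2%. In library 2 the cells just outside the stromal limit were deeper (median 16887 UMIs) than those just inside (10791) and than general capillary cells as a whole (4894.5).

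The libraries stand apart in yield and depth. General capillary cells were 0.436% of kept cells in library 1 (exact Clopper-Pearson 95% interval 0.314% to 0.589%) and 3.48% in library 2 (3.13% to 3.86%), a mean of 1.96% ± 2.16 (SD, n = 2 libraries). Among endothelial cells with a low stromal share the proportion was close: 42 of 54 (77.8%, interval 64.4% to 88.0%) and 348 of 461 (75.5%, interval 71.3% to 79.3%), with 11 and 91 aerocytes beside them. The median general capillary cell held 1875.5 UMIs and 1076 genes in library 1 and 4894.5 UMIs and 2141.5 genes in library 2. Median mitochondrial UMIs were 1.29% and 2.63%. Summed, the cells gave 84667 UMIs in library 1 and 2572058 in library 2, beside 30770 and 848514 for aerocytes and 34497375 and 55253495 for stromal cells. A count of 0 therefore allows up to 35.4 counts per 1e6 UMIs (CPM; 3 UMIs of the sum) in library 1 and 1.17 in library 2 for general capillary cells, and 97.5 and 3.54 for aerocytes. All levels below are CPM, UMI counts scaled to these sums, given for library 1 and then library 2. Intervals and limits cover counting error only.

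The label was checked against markers that the gate did not use. Cd93, a receptor of the endothelial surface that binds matrix, stood at 720.5 and 1723 CPM in general capillary cells, 0 and 708 in aerocytes, and 0.551 and 2.24 in stromal cells. Ptprb, the vascular endothelial protein tyrosine phosphatase, stood at 1772 and 1753, against 32.5 and 777 in aerocytes. Sema3c, a secreted guidance factor, stood at 543 and 1154, against 97.5 and 681. All 3 were higher than in aerocytes and in stromal cells in both libraries. Cd93 was seen in 29 of 42 cells (69.0%) and 338 of 348 (97.1%), and with every cell thinned to 1500 UMIs in 19 of 31 (61.3%) and 288 of 334 (86.2%), with 11 and 14 shallower cells left out. Among aerocytes it was seen in 0 of 11 and in 58 of 91 (63.7%), and after thinning in 0 of 10 and 43 of 89 (48.3%). In stromal cells, which should lack it and had median depths of 4234.5 and 7038 UMIs, the share was 0.230% and 1.69%, and 0.125% and 0.442% after thinning. Stromal cells were chosen to have no UMI of the 3 endothelial genes, so their low share partly follows from the choice. The cells thus carry these 3 markers, which were chosen with earlier results of these data known. In the tests against aerocytes below, Sema3c was not called.

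**Figure D1:**
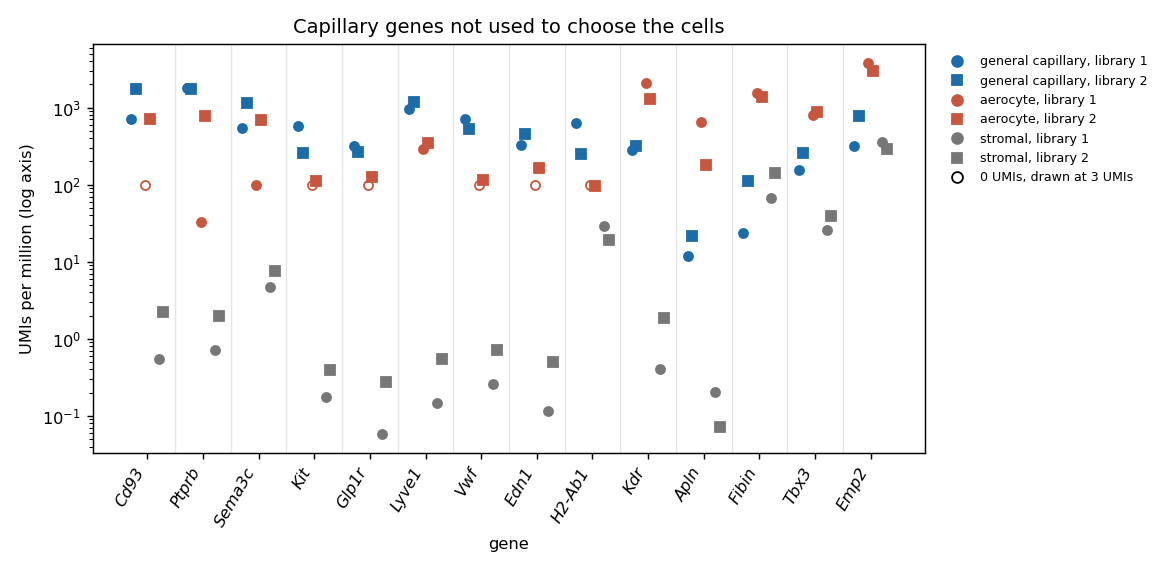
CPM (log axis) of 14 capillary genes that the gate did not use, in general capillary, aerocyte and stromal cells, 1 point per library; a hollow point is a count of 0 drawn at the value of 3 UMIs. Cd93 at 720.5 and 1723 sits above both aerocyte values, and Fibin at 23.6 and 111 sits below them.

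The comparison with aerocytes asks how the 2 capillary types differ beyond the genes that separated them. UMIs were summed by library and group and fitted in edgeR with the library as a block; the gate's 15 genes and mitochondrial genes were not tested. The block removes differences between the libraries that the cell groups share. With 2 libraries, p-values measure only how far the differences between the fitted groups vary from 1 library to the other. The estimate of that spread borrows information across genes. Of 10490 genes tested, 150 (1.43%) were higher and 114 (1.09%) lower in general capillary cells at an adjusted p under 0.05. Of the 264 genes (2.52%), 241 differed in the same direction in both libraries, but library 1 bears little of it: 130 had at least 10 UMIs there, and for 110 of the 150 higher genes the 11 aerocytes of library 1 gave no UMI. DESeq2, on the same sums, called 10 higher and 37 lower, all of them among the edgeR calls, and gave 4271 genes no adjusted p. Of the higher genes named below it called Lbp, Plac8, Vwf, Lyve1, Slc6a2, Lyz2, Sftpa1 and Sftpc, and of the lower genes it did not call Tbx2, Prx, Icam2 and Dhrs3. Of the genes named below as called, Acta2, Bmp6, Ctsh, Cyp26b1, Esm1, H2-Aa, Icam2, Isg15, Nr2f2, Nr4a1, Plac8, Ptgs1, Sox17 and Vegfc were not called in thinned cells, though each kept its direction. Others, among them Lmntd1, Fndc1, Rspo3, Dpysl5 and Slc45a4, were not tested in thinned cells. With no filter on low counts, no block, epithelial and immune sums added or a stromal limit of 0.05%, at least 1 of these 4 alternatives did not call Acta2, Atf3, Bmp6, Ctsh, Cxcl12, Entpd1, Fabp4, Glp1r, H2-Aa, Hey1, Hopx, Icam2, Isg15, Lpl, Npr3, Nr2f2, Nr4a1, Nrp1, Prx, Ptgs1, Ptgs2, Scgb1a1, Slc45a4, Sox17, Vegfa or Vegfc. The median log2 fold change of all genes tested was 0.17.

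Of 8 general capillary markers, Gpihbp1 and Plvap belonged to the gate, and 4 of the other 6 were higher than in aerocytes, with a list median log2 fold change of 1.92. Ptprb had a log2 fold change of 2.34 (adjusted p = 1.9e-06) and Cd93 of 2.04 (adjusted p = 8.4e-05). Kit, the receptor for stem cell factor, stood at 579 and 254 against 0 and 111 (log2 fold change 1.99, adjusted p = 5.9e-05). Glp1r, the receptor of glucagon-like peptide, stood at 319 and 267 against 0 and 124 (log2 fold change 1.68, adjusted p = 0.0018). Sema3c (1.22, adjusted p = 0.054) and Aplnr, the apelin receptor (59.1 and 41.2 against 0 and 14.1, adjusted p = 0.079), did not pass. Unadjusted, 6 of 6 had p under 0.05, and DESeq2 called 0 of the 6. With library 2 alone, which holds most UMIs, the log2 ratio to aerocytes was 1.28 for Cd93, 1.17 for Ptprb, 1.20 for Kit and 1.11 for Glp1r, smaller than over both libraries. All 8 tested aerocyte markers were lower, with a list median of -2.25: Apln, Fibin, Tbx2, Prx, Emp2, Chst1, Kdr and Nrp1. DESeq2 called 6 of these 8.

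Among angiogenic ligands and receptors, calls went in both directions. Apln, the apelin ligand, stood at 11.8 and 21.4 in general capillary cells against 650.0 and 180.3 in aerocytes (log2 fold change -3.21, adjusted p = 3.6e-12), while its receptor Aplnr, given above, was not called. Kitl, the ligand of Kit, stood at 165 and 372 against 1559.96 and 1235 (-1.999, adjusted p = 2.3e-05), opposite to Kit. Kdr, the main receptor for vascular endothelial growth factor, stood at 283 and 318 against 2079.95 and 1301 (-2.21, adjusted p = 2.6e-06). General capillary cells in turn had more Vegfa, a ligand of Kdr, at 555 and 285 against 0 and 153 (1.52, adjusted p = 0.0046). They also had more Vegfc (1.82) and more Tek, the angiopoietin receptor (449 and 411 against 0 and 163, log2 fold change 1.87, adjusted p = 1.7e-04). Flt1, Tie1, Angpt1 and Angpt2 were not called. Over the 17 listed angiogenic receptors and ligands, 16 were tested, 4 were higher and 4 lower, with a median of 0.87; DESeq2 called the 4 lower ones and 0 higher. With library 2 alone the log2 ratio was 0.89 for Vegfa and 1.34 for Tek, while the drops of Apln, Kitl and Kdr were larger with library 1 alone.

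**Figure D2:**
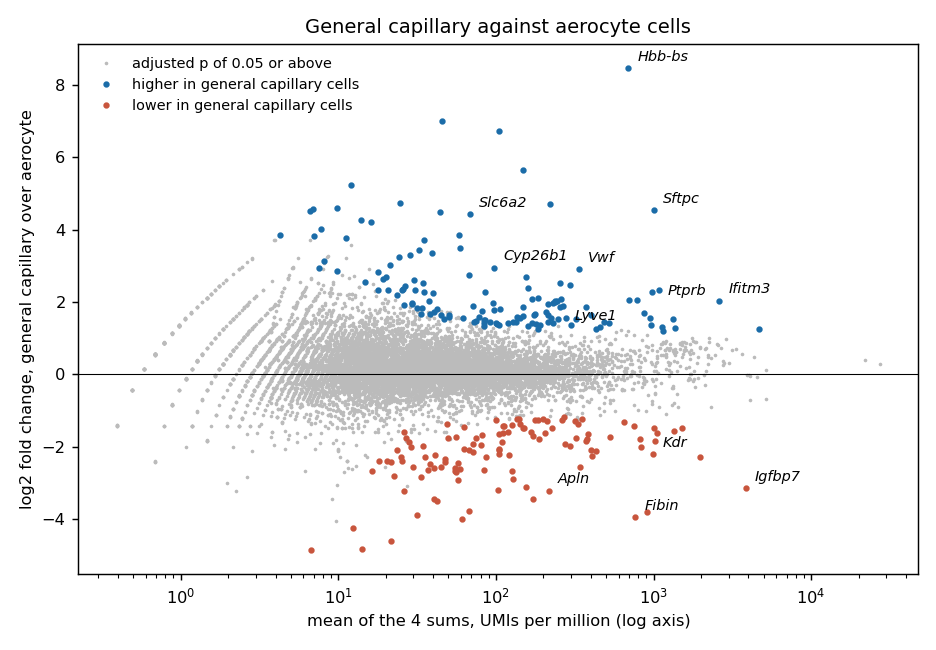
Log2 fold change of general capillary over aerocyte cells (edgeR) against the mean of the 4 sums in CPM (log axis), 1 point per gene with a UMI in both types; coloured points passed an adjusted p of 0.05. Fibin (-3.95) and Igfbp7 (-3.15) lie far below 0, and Slc6a2 (4.43) and Vwf (2.91) far above.

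The 12 largest called drops, by a rule that also asked for at least 50 CPM in the higher type and the same direction in both libraries, were those of Lmntd1, Fibin, Fndc1, AW112010, Ccdc184, Rspo3, Dpysl5, Rprml, Apln, Chst1, Igfbp7 and Cdkn2b. Igfbp7 encodes a secreted protein that binds insulin-like growth factors. It stood at 484 and 718 against 9197 and 4951 in aerocytes (log2 fold change -3.15, SE 0.40, adjusted p = 3.8e-12). Fibin stood at 23.6 and 111 against 1559.96 and 1378 (-3.95, SE 0.42, adjusted p = 2.0e-17), and AW112010 at 23.6 and 98.8 against 2632 and 889 (-3.80, SE 0.40, adjusted p = 6.3e-18). For these 3 genes every aerocyte value was above every general capillary value, and the drops were larger with library 1 alone. Rspo3, a secreted amplifier of Wnt signalling, gave 9 UMIs in all 390 cells, at 0 and 3.50 against 129.997 and 36.5 (-3.50). The transcription factors Tbx2 (-1.98) and Tbx3 (-1.74) were lower as well, as were Cd34 (-2.09) and Icam2 (-1.47), both of them endothelial surface proteins. Of the 21 pan-endothelial genes tested, 4 were higher than in aerocytes, 2 were lower and 15 were not called, with a median of 0.315. DESeq2 called 0 higher and 1 lower. Over 22 of 23 listed endothelial transcription factors tested, the T-box genes Tbx2 and Tbx3 were the lower ones, and Sox17 (1.43) and Nr2f2 (1.80) the higher ones. The log2 ratio of Sox17 was 0.84 with library 2 alone.

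By the same rule, the 12 largest called rises were those of Hbb-bs, Sftpa1, Lyz2, Sftpc, Esm1, Slc6a2, Plac8, Slc45a4, Ctsh, Cyp26b1, Vwf and Lbp. Hbb-bs, Sftpa1, Lyz2 and Sftpc are transcripts of red cells, alveolar type 2 cells and myeloid cells and are described with the other cell types below. Esm1, which encodes the proteoglycan endocan, stood at 129.9 and 43.9 against 0 and 2.36 (log2 fold change 4.49, adjusted p = 1.5e-05). Plac8 stood at 189 and 41.2 against 0 and 4.71 (3.86, adjusted p = 8.1e-06), and Lbp, which encodes lipopolysaccharide-binding protein, at 142 and 109 against 0 and 20.0 (2.74, adjusted p = 8.1e-06). In all 3 the general capillary value was the higher in both libraries, which the rule required. Esm1 (3.44) and Plac8 (3.56) were not called in thinned cells, and with library 2 alone the log2 ratio of Plac8 was 3.13. Lyve1, a hyaluronan receptor best known from lymphatic vessels, stood at 969 and 1175 against 292 and 345 (2.04, adjusted p = 5.1e-05). It was seen in 24 of 42 cells and 290 of 348 (57.1% and 83.3%, and 61.3% and 62.9% after thinning), while in stromal cells its share was 0.0639% and 0.425%, or 0.0138% and 0.114% after thinning. In aerocytes the share of Lyve1 was 18.2% and 62.6%, or 20% and 24.7% after thinning.

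Of 21 listed genes of vascular tone and clotting, 17 were tested, 6 were higher than in aerocytes, 1 was lower and 10 were not called, with a median log2 fold change of 0.95. DESeq2 called 1 higher and 1 lower. Edn1, the precursor of the vasoconstrictor endothelin, stood at 331 and 456 against 0 and 163 in aerocytes (2.02, adjusted p = 9.9e-05); aerocytes were chosen by the endothelin receptor Ednrb. Its log2 ratio was 1.49 with library 2 alone. Vwf, which captures platelets, stood at 709 and 528 against 0 and 114 (2.91, adjusted p = 1.5e-09), a log2 ratio of 2.21 with library 2 alone. Much of it came from the cells with a Slc6a2 UMI described below, 3 of 42 and 33 of 348. They gave 32 of 60 Vwf UMIs in library 1 and 860 of 1358 in library 2, where the other 315 cells stood at 225 CPM. Entpd1, which breaks down extracellular ATP, was higher (1.80), as were Npr3, a natriuretic peptide receptor (1.44), and Ptgs1, a prostaglandin synthase (1.58). Ptgs2 had 6 and 29 UMIs against none in aerocytes, at least 3.19-fold higher in library 2, while in library 1 its level (70.9) was below what a count of 0 allows in aerocytes. Ace, the angiotensin-converting enzyme, stood at 945 and 996 against 1072 and 1109 and was not called (0.09). Nor was Thbd, thrombomodulin (602 and 1171 against 519.99 and 1043).

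Large-vessel markers were partly present. Of the arterial list, 3 of 7 tested genes were higher than in aerocytes, with a median of 0.92: the gap junction gene Gja4 (461 and 158 against 0 and 61.3, log2 fold change 2.09), the chemokine gene Cxcl12 (827 and 485 against 0 and 285, log2 fold change 1.63) and the Notch target Hey1 (165 and 117 against 0 and 53.0, log2 fold change 1.503). With library 2 alone the log2 ratio was 1.37 for Gja4 and 0.77 for Cxcl12, and DESeq2 called 0 of the 7 arterial genes, of which 4 higher and 1 lower had an unadjusted p under 0.05. Stmn2, on the same list, stood at 508 and 432 against 1202 and 857 in aerocytes and was not called. Gja5, a connexin of larger arteries, was at 0 and 6.998, and Bmx at 0 and 6.61. Of the venous list, 3 of 5 tested genes were higher, with a median of 1.80: Vwf, Slc6a2 and Nr2f2. Ackr1, a marker of venules, was at 0 in general capillary cells, aerocytes and stromal cells of both libraries. Slc6a2, the noradrenaline transporter, stood at 106 and 161 against 0 and 8.25 in aerocytes and 1.10 and 1.41 in stromal cells (4.43 over aerocytes, adjusted p = 1.2e-11; 6.42 over stromal cells, adjusted p = 1.0e-45).

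Slc6a2 UMIs came from few cells: 3 of 42 in library 1 and 33 of 348 in library 2, of which 29 held at least 3. Thinned, the share was 6.45% and 8.38%, beside 0.0969% and 0.1997% of stromal cells. The 33 cells were set beside the other 315 of library 2 after their values were seen, so the differences are a description with no test. Cells with Slc6a2 had 2365 CPM of Vwf against 225, 333 of Nr2f2, a venous transcription factor, against 88.7, and 151 of Vcam1, a leukocyte adhesion molecule, against 18.1. They had less Efnb2, an arterial ligand (99.0 against 439), while the arterial gene Gja4 was alike (157 against 158). They also had less Kit (146 against 272) and less Lpl (189.8 against 531), and similar Plvap (1020.4 against 1025), but less Gpihbp1 (1128 against 1487). Their Lyve1 was at 2239 against 999.8 and their Cyp26b1 at 154 against 55.7. Their median depth was higher, 8393 against 4642 UMIs, and the part of depth in these values was not tested. In library 1 the 3 cells gave 32 of 60 Vwf UMIs and 0 of 42 Efnb2 UMIs, but Cyp26b1 (123, from 1 UMI, against 327), Gja4 (123 against 496), Plvap (1481 against 3135) and Gpihbp1 (370.4 against 2064) were lower there. Nr2f2 and Vcam1 are not confined to veins: stromal cells had 246 and 307 of Nr2f2 and 347 and 338 of Vcam1, more than general capillary cells in both libraries.

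**Figure D3:**
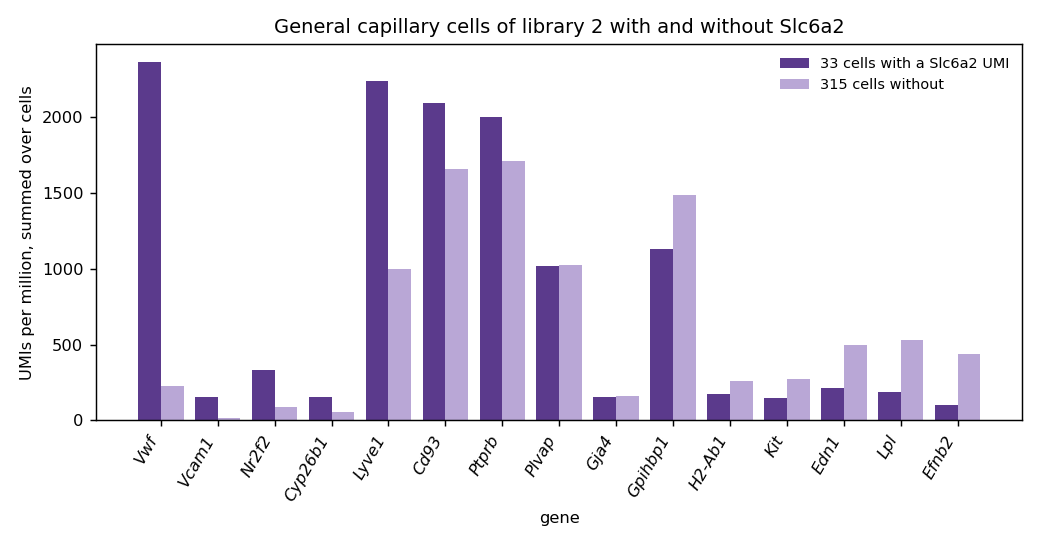
CPM (bars from 0) of 15 genes summed over the 33 general capillary cells of library 2 with a Slc6a2 UMI and the 315 without. Vwf stands at 2365 against 225 and Efnb2 at 99.0 against 439.

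Antigen presentation genes of class II were called higher. General capillary cells had 626 and 249.99 CPM of H2-Ab1 against 0 and 96.6 in aerocytes and 29.3 and 19.3 in stromal cells (log2 fold change 2.04 over aerocytes, adjusted p = 2.3e-05). H2-Eb1 stood at 484 and 189 against 0 and 64.8 (2.11, adjusted p = 2.1e-05), H2-Aa at 366 and 232 against 0 and 101 (1.65, adjusted p = 0.0014), and Cd74, the invariant chain, at 685 and 559.5 against 32.5 and 209 (1.85, adjusted p = 1.2e-04). Of these 4 genes, each was also higher than in stromal cells, by 2.49 to 3.64. DESeq2 called 0 of the 4 against aerocytes, and with library 2 alone the log2 ratios were 1.37 for H2-Ab1, 1.54 for H2-Eb1, 1.19 for H2-Aa and 1.42 for Cd74. Immune cells had far more H2-Ab1 (3227 and 3588) and epithelial cells had 606 and 392, less than general capillary cells in library 1 and more in library 2. Transcripts of both, such as Sftpc and Lyz2, were also higher than in aerocytes in these sums. Without barcodes with transcripts of other cell types, the 4 genes kept their call over aerocytes, from 1.51 (Cd74) to 2.04 (H2-Ab1), while in thinned cells H2-Aa was not called (1.18). H2-Ab1 was seen in 22 of 42 cells (52.4%) and 205 of 348 (58.9%), and after thinning in 51.6% and 29.0%, beside 2.52% and 4.17% of stromal cells, or 1.09% and 0.970% after thinning. Its share of aerocytes was 0% and 33.0%, or 0% and 6.74% after thinning. In epithelial cells the share was 95.9% and 81.8%, or 54.6% and 43.1% after thinning, and in immune cells 33.3% and 38.3%, or 35.4% and 35.2%. Class I genes were not called between the capillary types: H2-K1 stood at 3201 and 1615 against 2567 and 1500.3, and H2-D1 at 5350.4 and 2565 against 7149.8 and 3119.6. Both were higher than in stromal cells (2.71 and 2.24). The adhesion genes Sele and Madcam1 were near or at 0, with 1 UMI and 0 UMIs. In the list of 18 adhesion and antigen presentation genes, 15 were tested, 5 were higher and 1 lower than in aerocytes, with a median of -0.07.

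Because the class II genes moved together, their promoters are shown. Class II promoters are known for a shared inverted CCAAT element (the Y box) next to the X box. Promoters from 250 bases before to 50 after the gene start, from RefSeq on build GRCm38.p6, were searched on both strands for CTGATTGG, a spelling of that element. Of the 3 genes H2-Aa, H2-Ab1 and H2-Eb1, 2 matched an entry, and each holds the motif once, in capitals below. The H2-Aa sequence is chr17:34287774-34288073 on the minus strand and the H2-Eb1 sequence chr17:34305617-34305916 on the plus strand, both written 5′ to 3′ along the gene.
H2-Aa: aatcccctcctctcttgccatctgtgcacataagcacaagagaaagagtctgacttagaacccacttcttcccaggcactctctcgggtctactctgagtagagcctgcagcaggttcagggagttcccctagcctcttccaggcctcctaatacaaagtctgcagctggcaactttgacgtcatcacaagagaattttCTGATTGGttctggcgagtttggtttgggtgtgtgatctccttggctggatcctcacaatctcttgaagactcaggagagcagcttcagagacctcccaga
H2-Eb1: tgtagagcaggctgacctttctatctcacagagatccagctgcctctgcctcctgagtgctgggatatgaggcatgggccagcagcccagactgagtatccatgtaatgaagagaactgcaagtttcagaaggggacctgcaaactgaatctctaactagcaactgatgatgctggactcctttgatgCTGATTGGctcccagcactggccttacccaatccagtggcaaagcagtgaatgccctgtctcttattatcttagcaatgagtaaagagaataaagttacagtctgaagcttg
The motif is found in 1346 of all 32851 promoters (4.10%). The match describes the letters and says nothing on binding in these cells.

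Interferon-induced genes followed in part. Ifitm3 stood at 5646 and 2677 against 617 and 1519 in aerocytes (2.03, adjusted p = 5.4e-05), and Isg15 at 295 and 78.9 against 65.0 and 40.1 (1.42, adjusted p = 0.035). Their log2 ratios were 0.82 and 0.98 with library 2 alone and 3.19 and 2.18 with library 1 alone, and Isg15 was not called in thinned cells (2.03). The other 5 of the 7 listed genes were not called, and the list median was 0.71. Ifitm3 was not called against stromal cells, which stood at 2081 and 2158.

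The comparison with stromal cells places the retinoid and lipid genes, since stromal cells were the main yield of the retinoid sort. General capillary cells were chosen for few, and stromal cells for many, UMIs of the 6 stromal genes, so the fall of stromal transcripts partly follows from the choice. Stromal cells also had to have no UMI of the 3 endothelial genes of the gate. The rise of endothelial transcripts therefore partly follows from the choice too. Of 10490 genes tested, 1412 (13.5%) were higher and 1963 (18.7%) lower, 3375 (32.2%) in all, and 3093 had the same direction in both libraries. The median log2 fold change of all genes tested was -0.23. DESeq2 called 929 higher and 796 lower, each among the edgeR calls. By the named-gene rule the largest rises were those of Lyve1 (11.23), Ifi208, Dnah2os, Cytl1, Cldn5 (10.51), Gpr182, Adgrl4, Sox18, Glp1r, Ptprb, Clec1a and Myct1. Lyve1 stood at 0.145 and 0.543 in stromal cells, and Cldn5, the tight junction claudin of endothelium, at 0.725 and 3.08 against 3945 and 2974 in general capillary cells. Of the 24 listed pan-endothelial genes, 3 belonged to the gate, and 20 of the other 21 were higher, with a median of 8.17. Cd34 was the exception (94.5 and 128 against 84.4 and 87.6).

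The largest drops were those of Clec11a, Rbp4, Mmp3, C4b, Tnfaip6, Il6, Cpxm1, Sfrp1, Art4, Unc5c, Igsf10 and Fbln1. Clec11a, a secreted growth factor, had no UMI in the 390 cells and was at least 1.45-fold lower in library 1 and at least 47.2-fold lower in library 2, where stromal cells had 55.1. Rbp4, the plasma carrier of retinol, gave 2 UMIs (0 and 0.778) against 198 and 105 in stromal cells (-7.45, adjusted p = 4.7e-29). Mmp3, a matrix metalloproteinase, gave 0 and 2.72 against 328 and 310.4 (-7.19), and the complement gene C4b 0 and 6.22 against 457 and 446 (-6.56). For each of these genes the stromal value was above the general capillary value in both libraries, which the named-gene rule required.

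Stromal transcripts set the background for the retinoid genes. Of 10 listed stromal genes that the gate did not use, 9 had at least 50 CPM in stromal cells, and each of these was lower in general capillary cells. The ratio of their level to that of stromal cells ran from 0 to 0.166 in library 1 (median 0.0545) and from 0.0768 to 0.189 in library 2 (median 0.103). Inmt, with 6995 and 6358 in stromal cells, stood at 449 and 613. In cells with no UMI of the 6 gate genes, 35 and 180 cells, the median ratio was 0.0324 and 0.0236, with a highest ratio of 0.117 and 0.0456. A gene whose ratio falls inside these ranges cannot be told apart from stromal background here.

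**Figure D4:**
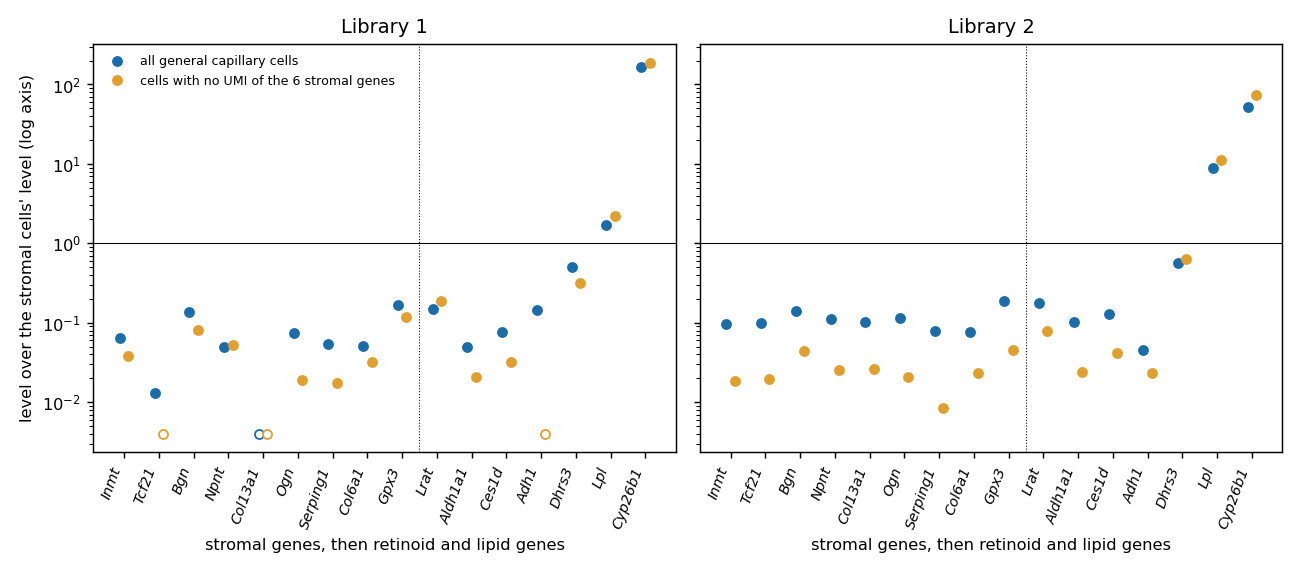
Level in general capillary cells over the level in stromal cells (log axis) for 9 stromal genes and 7 retinoid or lipid genes, by library, in all cells and in those with no UMI of the 6 gate genes; ratios of 0 are drawn hollow near the lower edge. Cyp26b1 lies at 168 and 52.7, and Lrat at 0.149 and 0.176.

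Lrat, the enzyme that makes retinyl esters for storage, had 4 UMIs in library 1 and 64 in library 2, or 47.2 and 24.9 CPM, a mean of 36.1 ± 15.8 (SD, n = 2 libraries). Stromal cells had 316 and 141 (log2 fold change -2.86, adjusted p = 1.8e-12) and aerocytes 97.5 and 20.0, from 3 and 17 UMIs. Its ratio to stromal cells, 0.149 and 0.176, lay inside the range of the stromal genes. In cells with no UMI of the gate's stromal genes the ratio was 0.189, from 4 UMIs, and 0.0790, from 9 UMIs, above the highest stromal gene in each library. Lrat was seen in 2 of 42 cells (4.76%) and 42 of 348 (12.1%), and after thinning in 2 of 31 (6.45%) and 9 of 334 (2.69%). Immune cells, which should lack Lrat, had shares of 0.855% and 1.09% (the median cell held 3184 and 4689 UMIs), and 0 of 99 and 0 of 182 after thinning. The source of the few UMIs in general capillary cells was not tested. Lrat was not called against aerocytes (0.26).

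The retinyl ester hydrolase gene Ces1d lay within the stromal background (35.4 and 58.7 against 465 and 450.5 in stromal cells, ratio 0.0761 and 0.130). So did the retinaldehyde dehydrogenase gene Aldh1a1 (35.4 and 170.3 against 711 and 1654, ratio 0.0498 and 0.103). Stra6, the retinol uptake receptor, had no UMI in any of the 3 groups. Lipe and Pnpla2, lipases that split neutral lipid, were higher than in stromal cells: Lipe at 70.9 and 75.0 against 18.9 and 31.3 (1.06, adjusted p = 0.013), and Pnpla2 at 70.9 and 142 against 33.0 and 54.3 (0.99, adjusted p = 0.017). DESeq2 called neither against stromal cells, and Pnpla2 was not called in thinned cells (0.91). Of 9 uptake and storage genes, 7 were tested, and 2 were higher and 4 lower than in stromal cells (median -2.86), while 0 of the 7 were called against aerocytes by edgeR, 0 at an unadjusted p under 0.05 and 0 by DESeq2. Their median was 0.55 over aerocytes, or 0.26 with genes at 0 in a type set to their limit. Of all genes tested, edgeR called 2.52% against aerocytes.

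Cyp26b1, which breaks down retinoic acid, was the 1 listed retinoid gene called higher than in both other groups. It stood at 307 and 69.6 CPM, from 26 and 179 UMIs, a mean of 188 ± 168 (SD, n = 2 libraries). Aerocytes had 0 and 14.1 and stromal cells 1.83 and 1.32. The log2 fold change was 2.95 over aerocytes (SE 0.55, adjusted p = 1.8e-05) and 6.03 over stromal cells (adjusted p = 1.8e-46), and general capillary cells were the highest of the 3 groups in both libraries. With library 2 alone the log2 ratio to aerocytes was 2.30, and Cyp26b1 was not called against aerocytes by DESeq2 (3.29) or in thinned cells (2.13). UMIs were seen in 14 of 42 cells (33.3%) and 92 of 348 (26.4%), and after thinning in 25.8% and 8.98%, beside 0.664% and 0.666% of stromal cells, 0.138% and 0.143% of them after thinning. The share of aerocytes was 0% and 9.89%, or 0% and 3.37% after thinning. Epithelial and immune cells gave no UMI in either library. The ratio to stromal cells rose to 189 and 73.0 in the cells with no UMI of the gate's stromal genes. The sister genes Cyp26a1 and Cyp26c1 were at 0 in general capillary cells of both libraries, as was Crabp2, a carrier of retinoic acid.

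**Figure D5:**
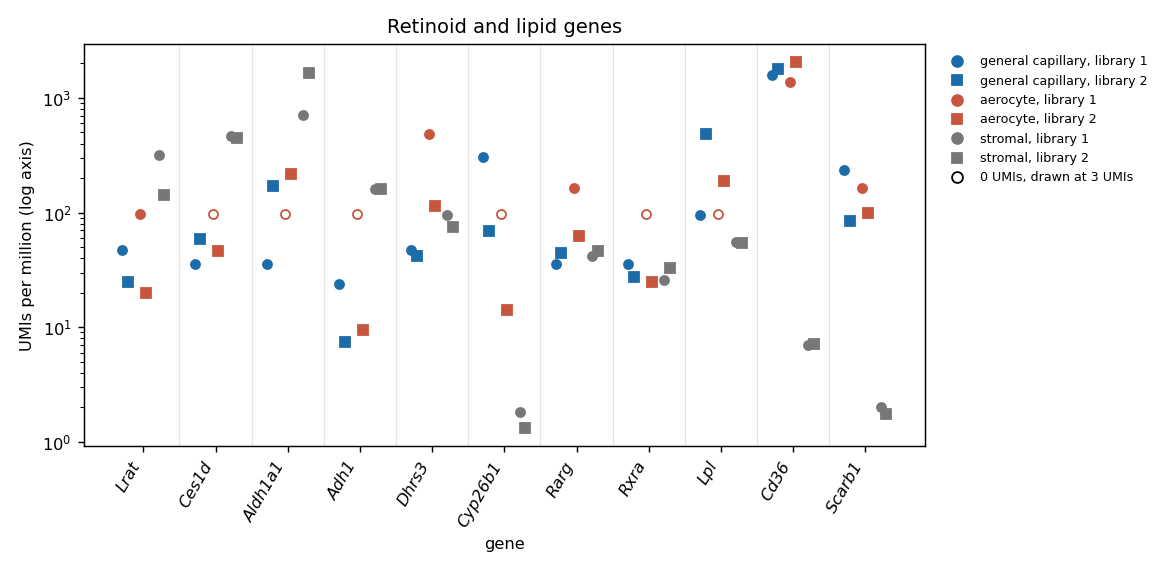
CPM (log axis) of 11 retinoid and lipid genes in general capillary, aerocyte and stromal cells, 1 point per library; a hollow point is a count of 0 drawn at the value of 3 UMIs. Within each library Cyp26b1, at 307 and 69.6, stands above both other types, where the aerocyte count of 0 in library 1 is drawn at 97.5. Lrat at 47.2 and 24.9 lies below the stromal values.

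Dhrs3, which reduces retinaldehyde back to retinol, differed between the capillary types in the other direction. It stood at 47.2 and 41.6 in general capillary cells against 487 and 113 in aerocytes (-1.69, adjusted p = 0.0022) and 94.6 and 74.1 in stromal cells (-1.07, adjusted p = 0.0094). DESeq2 did not call it against aerocytes (-1.98) or stromal cells (-1.09), it was not called against stromal cells after thinning (-0.92), and with library 1 alone the log2 ratio was -3.37. Dhrs3 was the 1 of 7 tested retinoid oxidation genes called against aerocytes, and the list median was 0.02, or 0 with genes at 0 set to their limit. Against stromal cells 4 of these 7 were lower, with a median of -1.07. Adh1 stood at 23.6 and 7.39 against 161 and 161 (-4.54), and Adh7 had no UMI in general capillary cells, at least 5.18-fold lower in library 2 than in stromal cells. Aldh1a2 was also at 0. Aldh1a3 gave 2 and 8 UMIs (23.6 and 3.11) and was not tested because of its low counts. The receptor genes Rara, Rarg, Rxra and Rxrb were tested, and 0 of the 4 were called in either comparison by edgeR, by DESeq2 or at an unadjusted p under 0.05. Over all genes tested, edgeR called 2.52% against aerocytes and 32.2% against stromal cells. Rarg stood at 35.4 and 44.3 against 41.4 and 46.1 in stromal cells, and Rxra at 35.4 and 27.6 against 25.9 and 32.9. Rara had no UMI in library 1 and 84.8 in library 2. Rarb gave 1 and 10 UMIs, and Rxrg none.

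Among genes of lipoprotein lipolysis and fatty acid uptake, 15 of 17 tested were not called against aerocytes, and DESeq2 called 0. Of all 10490 genes tested, 10226 were not called against aerocytes, and DESeq2 called 10 higher and 37 lower. Few calls in a list of this size therefore do not show that the capillary types are alike. Cd36, a fatty acid and lipoprotein receptor, stood at 1571 and 1784, against 1365 and 2045 in aerocytes and 7.02 and 7.19 in stromal cells (7.49 over stromal cells, adjusted p = 1.3e-57). Scarb1, the receptor for high-density lipoprotein, stood at 236 and 85.1 against 2.00 and 1.76 in stromal cells (5.71, adjusted p = 1.7e-47). Neither was called against aerocytes. Acvrl1 (3.11) and Cav1 (4.03), whose proteins take part in the uptake of low-density lipoprotein across endothelium, were likewise higher than in stromal cells and not called against aerocytes. Lpl, the lipase that GPIHBP1 holds, stood at 94.5 and 482 against 54.8 and 54.5 in stromal cells (1.93, adjusted p = 3.2e-06) and 0 and 189.7 in aerocytes (1.37, adjusted p = 0.020). Its level differed between the libraries, with 8 UMIs in library 1, and DESeq2 did not call it against stromal cells (1.46). Lpl was seen in 6 of 42 cells (14.3%) and 277 of 348 (79.6%), 16.1% and 45.5% after thinning, beside 16.4% and 20.7% of stromal cells, or 6.53% and 6.08% of them after thinning.

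Fabp4, a fatty acid carrier, gave 6 and 36 UMIs (70.9 and 14.0) and none in aerocytes, at least 3.96-fold higher in library 2 than the aerocyte limit and under that limit in library 1; against stromal cells it was higher by edgeR (2.52, adjusted p = 6.6e-05) and not called by DESeq2 (3.52). Lower than in stromal cells were Lrp1 (23.6 and 83.2 against 709 and 769, log2 fold change -3.93), Vldlr (-2.76), Lipa (-1.88), Angptl4 (-3.17) and Plin2, a coat protein of lipid droplets (23.6 and 53.3 against 183 and 173, log2 fold change -2.24). Of the 20 listed genes, 17 were tested, 6 were higher and 8 lower than in stromal cells (median -0.63), and 2 were higher than in aerocytes (median 0.41). Meox2 (0 and 5.05) and Tcf15 (0 and 1.17), transcription factors that drive fatty acid uptake genes in heart endothelium, were near 0, and Pparg was at 0.

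Signalling by bone morphogenetic proteins (BMPs) showed the endothelial set of receptors. Eng stood at 1323 and 995 against 25.7 and 24.8 in stromal cells (5.12) and Bmpr2 at 803 and 1243 against 90.2 and 149 (2.73), with Acvrl1 completing the receptor complex. Bmpr1a, another BMP receptor, was lower (0 and 13.6 against 59.7 and 112, log2 fold change -3.41), as were the receptors of transforming growth factor beta Tgfbr1 (-1.70, not called by DESeq2), Tgfbr2 (-2.46) and Tgfbr3 (-2.11). The ligand Bmp6 stood at 354 and 236 against 0.261 and 0.326 in stromal cells (9.44) and 0 and 149.7 in aerocytes (1.26, adjusted p = 0.037). Against aerocytes Bmp6 was not called in thinned cells, where its log2 fold change was again 1.26, and its log2 ratio was 0.65 with library 2 alone. The target genes Id1 (3.23) and Smad6 (5.78) were higher than in stromal cells, Id1 at 248 and 1091. Of 18 listed genes, 17 were tested, and 9 were higher and 5 lower than in stromal cells (median 1.21), and 2 higher than in aerocytes (median 0.22). For Notch, 8 of 10 genes were higher and 2 lower than in stromal cells (median 4.56), among them the ligand Dll4 (189 and 77.4 against 0.0580 and 0.181, log2 fold change 9.19) and the receptor Notch4 (6.09). Only Hey1 was called against aerocytes (list median 0.66).

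Transcription factors and junction genes of endothelium were mostly higher than in stromal cells, which follows in part from the choice of cells by endothelial UMIs. Of 23 listed factors, 22 were tested, and 18 were higher and 3 lower than in stromal cells (median 3.62). Sox18 (10.45), Sox17 (9.83) and Gata2 (9.17) rose the most of those given here, and Epas1, a hypoxia-responsive factor, stood at 1736 and 2903 against 30.4 and 42.8 (5.57). Foxf1, which lung endothelium shares with mesenchyme, stood at 555 and 722 against 27.6 and 27.3 (4.14). Klf2, induced by blood flow, stood at 2445 and 3685 against 429.9 and 351 (2.53). Of 13 caveolar and junction genes tested, 10 were higher and 1, Cavin3 (-1.18), lower (median 4.03), and 0 were called against aerocytes by edgeR or DESeq2, with 2 at an unadjusted p under 0.05 (median -0.02). Against aerocytes edgeR called 2.52% of all genes tested.

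The 15 transcripts with the highest mean level, mitochondrial and ribosomal protein genes apart, were Malat1, Gm42418, Tmsb4x, Itm2b, Fth1, Jun, Ifitm3, H2-D1, Hpgd, Junb, Ramp2, Ubb, Actb, Cldn5 and Tpt1. Hpgd, which inactivates prostaglandins, stood at 3519.7 and 4049, against 5.42 and 19.7 in stromal cells and 2502 and 3303 in aerocytes. Ramp2, part of the adrenomedullin receptor, stood at 4217 and 3098 against 22.1 and 15.6 in stromal cells (7.22), and its partner Calcrl at 1642 and 1496 (7.28). Gm42418, which overlaps ribosomal RNA, moved with the library rather than with the cell type: 10299 and 36863 in general capillary cells, and 9035 and 33245 in stromal cells. Ribosomal protein genes gave 11.4% and 10.9% of UMIs, against 8.22% and 8.47% in aerocytes and 13.5% and 11.7% in stromal cells.

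Immediate early genes were a further large share, and differed by library. The 13 listed genes summed to 33945 CPM in library 1 and 14354 in library 2. Atf3, a stress-induced factor, stood at 3543 and 577 and Fos at 4629.9 and 1382. Against aerocytes 2 of 13 were higher, Atf3 (1.54, adjusted p = 0.0040) and Nr4a1 (2.28, adjusted p = 0.0074), with a median of 0.86. The log2 ratio of Atf3 was 0.64 with library 2 alone, and with library 1 alone that of Nr4a1 was 0.54. Against stromal cells Ier3 was higher (2941 and 1448 against 481 and 215, log2 fold change 2.30), and Fos (-1.26), Fosb (-1.39), Dusp1 (-1.44) and Nr4a1 (-3.05) were lower, with a median of -0.50. DESeq2 did not call Fos or Fosb. Of 7 heat shock genes, 5 were lower than in stromal cells by edgeR and 2 by DESeq2 (median -1.58), and Hspb1 was the 1 called against aerocytes, at 768 and 358 against 3185 and 1095 (-1.56, adjusted p = 0.0028; list median 0.04).

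Transcripts of other cell types differed in how many barcodes held them. The 8 listed red cell and platelet genes gave 10902 UMIs in library 2, of which 1 cell gave 10768; Hbb-bs gave 7072 UMIs, 7065 of them in that cell. Library 1 had 1 such UMI, with 7 of the 8 genes at 0. The 8 alveolar type 2 genes gave 10621 UMIs in library 2, 97.4% of them in 5 cells, with Sftpc the most abundant (7993), and 59 UMIs in library 1, where 4 of the 8 genes were at 0. Cells with at least 1 of these UMIs numbered 29 of 42 and 167 of 348. Sftpc was seen in 66.7% and 40.8% of general capillary cells, and in 73.4% and 45.3% of stromal cells. After thinning it was seen in 54.8% and 13.2%, and in 40.3% and 13.0% of stromal cells. Of the 10 immune genes, Lyz2 gave 1825 of 1913 UMIs in library 2, 94.6% of the list's UMIs lay in 5 cells, and 2 of the genes were at 0; in library 1 the list gave 8 UMIs.

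The edgeR calls of such genes changed without these barcodes. Over aerocytes, 8 of 8 alveolar type 2 genes, 4 of 7 red cell and platelet genes and 1 of 2 immune genes tested were higher, with medians of 5.45 (4.53 with genes at 0 at their limit), 6.74 (6.63 at the limit) and 3.44. In an alternative chosen after seeing the data, barcodes with at least 0.2% of UMIs from the red cell and platelet, alveolar type 2, mural or immune list, or at least 3 UMIs of the lymphatic genes Prox1 and Mmrn1, were left out, which kept 39 and 313 general capillary cells and 11 and 85 aerocytes. Hbb-bs then fell from 8.46 to -0.56, Sftpa1 from 5.66 to 1.31, Lyz2 from 4.71 to 0.32 and Sftpc from 4.54 to 0.60, and none of the 4 was called. That follows in part from the construction, since the same genes chose the barcodes. In all 145 genes were then higher and 115 lower than in aerocytes, 110 and 107 of them among the 150 and 114 above. Esm1 (5.23), Slc6a2 (4.25), Vwf (2.80), Cyp26b1 (2.81), Cd93 (2.05) and H2-Ab1 kept their call.

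Mural cell transcripts were spread more widely. The 8 genes gave 1535 UMIs in 89 of 348 cells of library 2, with Gucy1a1 the most abundant (573 UMIs), and 2 UMIs in library 1, where 6 of 8 were at 0 and Pdgfrb, the defining marker, among them. In library 2 Pdgfrb gave 201 UMIs in 35 cells and Cox4i2, a pericyte gene, 448 in 51. Against stromal cells 5 of 8 mural genes were called higher and 2 lower by edgeR, and 2 higher and 2 lower by DESeq2 (median 1.17). Of the 6 still tested when the barcodes above were left out, 1 was higher and 2 were lower. Against aerocytes 1 of 8, Acta2, was higher (median 0.96, or 0.75 at the limit). With the barcodes above left out, Acta2 was not called against aerocytes (8.57), while 1 of the 6 mural genes still tested was higher. The part of pericyte transcripts in the general capillary barcodes was not tested. The 7 alveolar type 1 genes were led by Clic5 (272 and 845) and Hopx (331 and 539), both higher still in aerocytes at 1202 and 1283 and at 1852 and 1489.7, while Ager stood at 11.8 and 126; 1 of 7 was lower than in aerocytes (median -0.76) and 6 of 7 higher than in stromal cells (median 2.68), 2 of them by DESeq2. Of 4 airway genes, Scgb1a1 led with 0 and 176 UMIs, 1 was tested and it was higher than in aerocytes (2.32) and not called against stromal cells (0.13). The 3 mesothelial genes gave no UMI.

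Lymphatic and dividing cells were rare. Prox1, which defines lymphatic endothelium, gave 27 UMIs in 2 cells of library 2, Ccl21a 916 in 2 cells, Reln 33 in 2 and Mmrn1 145 in 4 cells, of which 2 held 142. In library 1 all 4 were at 0. Lyve1, in contrast, was seen in most cells. Of the 7 lymphatic genes 3 were tested, and 1, Lyve1, was higher than in aerocytes (median 0.85) and 2 higher and 1 lower than in stromal cells (median 9.54). Of the dividing-cell genes, Mki67 gave 68 UMIs in 7 cells of library 2, of which 2 cells held 63, and Top2a 71 in 5 cells, of which 2 held 67. Both were at 0 in library 1, where 0 of 42 cells allows a share of cells with a UMI of up to 7.14%. Of 12 cell cycle genes 5 were tested, 0 were called against aerocytes by edgeR or DESeq2, with 1 at an unadjusted p under 0.05 (median 0.74), and 2, Cdk1 and Mcm6, were higher than in stromal cells by edgeR and not by DESeq2 (median 0.37). Over all genes tested, 2.52% were called against aerocytes by edgeR.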

How the data were processed

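The authors deposited UMI counts per gene and cell barcode for 2 sorted lung libraries; the submitters' notes name Cell Ranger 5.0.1 and mm10. The 32285 genes were read as deposited, and 35 and 62 barcodes failed the gene and mitochondrial limits. No doublet caller was run: barcodes with Epcam, Ptprc or a stromal share above the limit were left out by the gate, and other mixtures are described. UMIs of each group were summed by library and tested with edgeR 4.0.16 in R 4.3.3 (TMM, filterByExpr, quasi-likelihood F test, library as block, 6 sums in 1 fit, Benjamini-Hochberg over all genes tested), after a check on simulated data. Tables used Python 3.11.15, numpy 2.4.6, pandas 2.3.3 and scipy 1.17.1, and figures matplotlib 3.10.9. Members and gene lists (30 lists, 298 genes) were chosen with earlier results of these data known. Named genes are those of the lists, in each comparison the 12 largest called folds in each direction with the same direction in both libraries and at least 50 CPM in the higher group, and the 15 most abundant transcripts; the Slc6a2 cells were singled out after their values were seen. Alternatives were DESeq2 1.42.0, RLE factors, no filter, no block, added epithelial and immune sums, a stromal limit of 0.05%, a capillary gate of 3 UMIs, a mitochondrial limit of 5%, an endothelial gate of 2 UMIs (shares only), cells thinned to 1500 UMIs (seed 1), each library left out, and 2 chosen after seeing the data: barcodes with transcripts of other types left out, and cells with no UMI of the other capillary gene pair.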

Additional observations from a re-analysis of the deposited data

How the results depend on the processing

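Library 1 held 11 aerocytes and 30770 UMIs of them, so a count of 0 there allows a level of up to 97.5 CPM. The groups were taken from the same libraries, and 2 libraries give little information on spread. Genes higher than in aerocytes numbered 150 and fell to 10 with DESeq2, 82 with no replicate block, 75 with epithelial and immune sums added and 56 in cells thinned to 1500 UMIs, where 5915 genes could be tested. They numbered 311 with no UMI of the other capillary pair, a contrast of more extreme cells chosen after seeing the data. Genes lower than in aerocytes numbered 114, and 37 with DESeq2, 66 with no replicate block and 69 in thinned cells. Against stromal cells, 1412 higher genes became 929 with DESeq2, and 1963 lower genes became 796 with DESeq2, 899 in thinned cells and 1034 with no UMI of the other capillary pair, where 7297 genes could be tested. Apart from the smaller number of genes tested, the cause was not tested. Under the other alternatives these counts differed by no more than 1.5 times.

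The replicate block pairs the groups of a library. Without it, 79 of the 150 higher and 66 of the 114 lower genes against aerocytes kept their call, and 1246 of 1412 and 1521 of 1963 against stromal cells. The share of general capillary cells ran from 0.436% to 3.48% with either library left out, and the Lrat level from 24.9 to 47.2.

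Of 80 called genes named against aerocytes, 78 kept their call with RLE factors, 29 with DESeq2 (45 did not and 6 had no adjusted p), 69 with the stricter stromal limit, 62 with no block, 61 with added sums, 59 with no filter, 47 in thinned cells (18 did not), and 80 with the capillary gate of 3 UMIs and the mitochondrial limit of 5%. Without barcodes with transcripts of other cell types, 62 kept it, 10 did not and 4 reversed. In that alternative the genes higher than in aerocytes fell from 2 to 1 in the lipoprotein, BMP and immediate early lists. For vascular tone and clotting they fell from 6 to 5. They rose from 4 to 5 among general capillary markers and from 1 to 2 for Notch. With no UMI of the other capillary pair, 68 kept their call, 6 did not and 1 reversed. Of 207 against stromal cells, 207 kept their call with RLE factors, 162 with DESeq2 and 170 in thinned cells. Without barcodes with transcripts of other cell types 185 kept it and 10 reversed, and with no UMI of the other capillary pair 185 kept it and 1 reversed. A count of 0 left no ratio for 52 of 80 genes in library 1 alone and for 6 in library 2 alone against aerocytes, and for 47 and 2 of 207 against stromal cells. Of those with a ratio, 25 of 28 moved by at least the standard error of the fit and 1 reversed in library 1 alone and 28 of 74 moved in library 2 alone against aerocytes. Against stromal cells 104 of 160 moved and 5 reversed in library 1 alone, and 83 of 205 moved in library 2 alone.

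Log2 fold changes that reversed were these. Without barcodes with transcripts of other cell types, against aerocytes: Cxcl15 -0.85, Hba-a1 -0.27, Hbb-bs -0.56 and Lamp3 -0.62. In the same alternative against stromal cells: Cxcl15 -1.61, Gucy1a1 -0.11, Hba-a1 -4.42, Hba-a2 -3.61, Hbb-bs -5.20, Lamp3 -1.68, Lyz2 -2.24, Sftpa1 -1.91, Sftpb -2.42 and Slc34a2 -4.83. All of these genes belong to the lists that chose the barcodes, so they fall by construction. With no UMI of the other capillary pair, Hbb-bs was at -1.72 against aerocytes and -5.81 against stromal cells, and with DESeq2 Gucy1a1 was at -0.61 against stromal cells. With either library alone, the log2 fold change of Cxcl15, general capillary against aerocyte cells, ran from -0.46 to 4.06. In the same way the log2 fold change of Cxcl15, general capillary against stromal cells, ran from -0.0213 to 3.42, the log2 fold change of Gucy1a1, general capillary against stromal cells, from -2.81 to 2.53, the log2 fold change of Hbb-bs, general capillary against stromal cells, from -1.61 to 4.48, the log2 fold change of Lyz2, general capillary against stromal cells, from -1.81 to 3.45, and the log2 fold change of Sftpa1, general capillary against stromal cells, from -1.66 to 3.56. For these the cause was not tested.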
